A study of Rattus norvegicus with 84 samples.

Results

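Messenger RNA carried by extracellular vesicles (EVs) of the rat brain was compared between the control group at day 10 poststroke and healthy rats. The 6 libraries were chosen by their labels alone, as the 3 brain EV mRNA libraries of each group, out of 84 libraries in the series and 21 of brain EV mRNA. All rats were male Sprague-Dawley animals aged 8 to 12 weeks. Control rats underwent occlusion of the right middle cerebral artery for 90 min, received saline 3 days later and were killed 10 days after the stroke. Healthy rats had no operation, so the occlusion, the surgery and the injection cannot be told apart in this comparison. EVs were taken from enzymatically dissociated brain tissue, with 3 rats per group and 1 library per rat. The study's methods name the frozen right hemisphere for stroke brains and do not name the region taken from healthy rats.

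EVs are membrane particles that cells release with part of their RNA and protein, and EVs from whole tissue mix those of neurons, glia, vessels and any blood cells present. After an ischemic stroke, microglia and macrophages take up myelin and dead cells, astrocytes around the lesion enlarge and make intermediate filaments, and neurons in the territory of the occluded artery are lost. In a pooled EV sample, fewer EVs of a cell type and less of a transcript per EV cannot be told apart.

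The data were counts of reads per gene, scaled here with TMM factors to CPM, the counts of a gene per 1000000 counts on annotated genes. The 6 libraries held 13221461 to 28068838 counts, of which 1403190 to 4498193 lay on annotated genes, and healthy replicate 1 was the shallowest. The annotated share was 12.3% ± 1.03 at day 10 and 13.9% ± 6.91 in healthy EVs (mean ± SD, n = 3, exact permutation p = 0.7). Day 10 replicate 2 stood apart. The summed level of 82 ribosomal protein genes was 37592 CPM in this library, 3677 and 6997 CPM in day 10 replicates 1 and 3, and 3090 to 4045 CPM in the healthy libraries. The day 10 libraries also resembled each other less (Pearson r of log levels across 14515 genes, 0.69 to 0.80) than the healthy ones did (0.84 to 0.90).

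Most genes that passed the test were higher after stroke, among them many genes of phagocytes. Of 14515 annotated genes tested, 83 were called (0.572%), meaning an adjusted p under 0.05 and a change of more than 1.5-fold by edgeR's quasi-likelihood test. These were 78 genes higher at day 10 (0.537%) and 5 lower (0.0344%). Of all tested genes, 7.05% had every day 10 library above every healthy one and 7.03% had the reverse. These shares are the background for the counts of each list below. The direction of all tested genes was even, with 49.7% above and 48.9% below 0 and a median log2 fold change of 0. Before the call, 1840 genes (12.7%) had an unadjusted p under 0.05. DESeq2, an alternative test, called 613 of the 14515 genes. Both values are the background for list counts at an unadjusted p or by DESeq2.

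**Figure D1:**
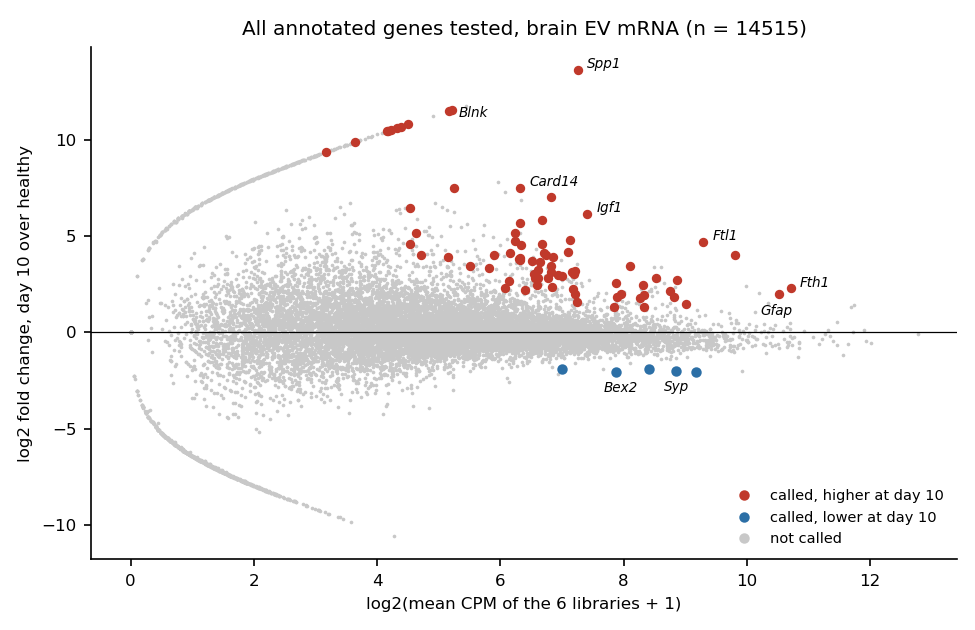
Each point is 1 of the 14515 annotated genes tested, with the log2 of its mean CPM over the 6 libraries plus 1 on the x axis and its log2 fold change, day 10 over healthy, on the y axis. The 78 genes called higher (red) lie above 0 and the 5 called lower (blue) lie close to -2; the thin arcs are genes with no read in 1 of the groups, whose fitted change depends on the prior count.

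The calls rested on few libraries. Without day 10 replicate 2 only 2 genes were called, Cmklr1, which was among the 83, and Anp32b (-2.29), which was not. Without healthy replicate 1 no gene was called, and without day 10 replicate 1 the count was 350. Fitting these 2 groups alone gave 0 calls, whereas DESeq2 called 613 genes, all 83 included. Of the 78 higher genes, 72 had all 3 day 10 libraries above all 3 healthy ones (7.05% of all tested genes did), 65 peaked in replicate 2, 13 in replicate 3 and none in replicate 1. Their median level relative to the healthy mean was 2.69-fold in replicate 1, 24.2-fold in replicate 2 and 8.33-fold in replicate 3.

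The largest change among the called genes was that of Spp1, which encodes osteopontin, a secreted matrix protein made by activated macrophages and microglia. Spp1 was at 20.03, 693 and 197 CPM in day 10 replicates 1, 2 and 3 and had no count in any healthy library. The group mean was at least 957-fold higher than the level of 3 counts over the healthy group (adjusted p = 0.0129). Blnk, an adaptor of immune receptor signalling, was likewise without a count in healthy EVs and stood at 23.9, 125 and 61.2 CPM at day 10, at least 220-fold higher (adjusted p = 0.0129). Both genes separated the groups completely, which was a condition for naming genes by largest change, as Blnk was. Both varied widely among the 3 stroke rats, with the lowest level in replicate 1 and the highest in replicate 2. In all, 11 of the 78 higher genes had no count in the healthy group.

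Genes that had some healthy signal showed the same spread. Card14 encodes a scaffold protein of NF-kB signalling. It was at 38.8, 269 and 165 CPM at day 10 and at 0, 0 and 2.25 CPM in healthy EVs, a log2 fold change of 7.50 ± 1.31 (SE, adjusted p = 0.0129). Igf1, insulin-like growth factor, stood at 25.6, 813 and 160 CPM against 0, 5.54 and 6.75 CPM (6.17 ± 1.12, adjusted p = 0.0146). For both genes the lowest stroke library lay above the highest healthy one, which was a condition for naming genes by largest change. Cmklr1, the chemerin receptor of macrophages, rose from 0, 0.886 and 0 CPM to 16.2, 96.5 and 107 CPM (7.49 ± 1.14). It had the smallest p of all genes and was the one call of the 83 kept without day 10 replicate 2 (adjusted p = 0.0268).

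**Figure D2:**
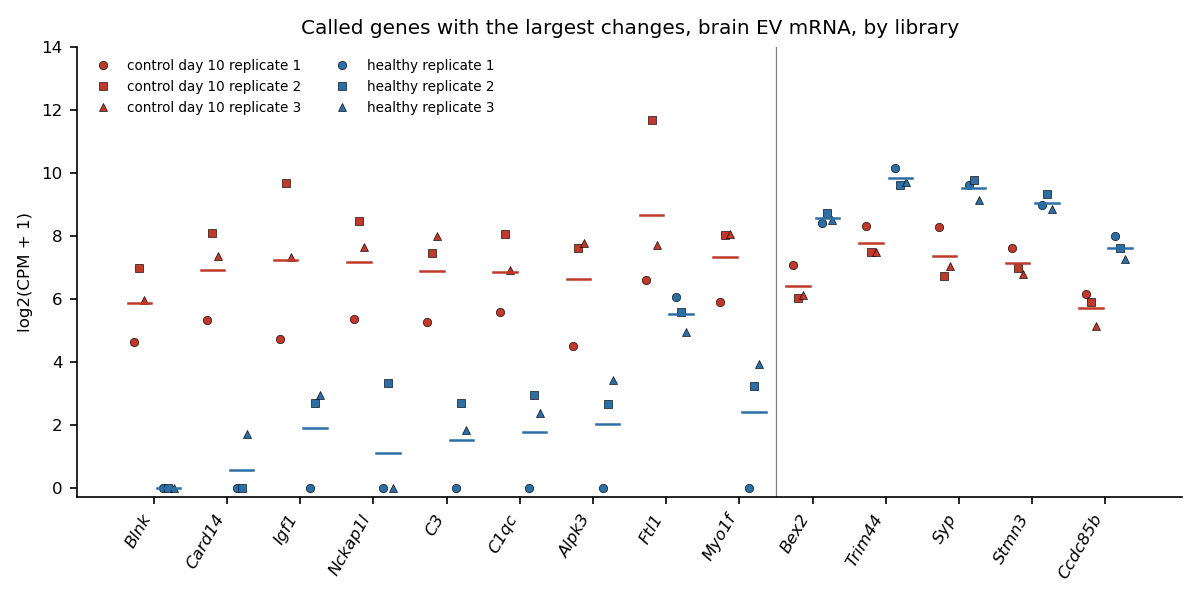
The y axis gives log2(CPM + 1) in each library for 9 of the genes called higher with the largest changes, no overlap and at least 50 counts in every day 10 library, left of the grey line, and the 5 called lower, right of it; symbols mark replicates, red is control day 10, blue is healthy, and bars are means of the plotted values. Day 10 replicate 1 is the lowest stroke library for each of the 9 higher genes and the highest for each of the 5 lower ones.

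Among the remaining genes with the largest increases were cytoskeletal regulators of immune cells. Nckap1l, a hematopoietic subunit of the WAVE actin complex, had a log2 fold change of 5.82 ± 1.02, and Myo1f, an unconventional myosin of immune cells, one of 4.58 ± 0.80. Alpk3, a gene best known from heart muscle, was also higher (4.73 ± 1.03). None of these 3 genes overlapped between the groups, again a condition for naming them by largest change. Other called genes of immune cells were Csf2rb, the common chain of cytokine receptors, and Pld4, an endolysosomal nuclease, both without a count in healthy EVs. They were at least 72.3-fold and 136-fold higher. Cebpa, a transcription factor of myeloid cells, had a log2 fold change of 3.79 ± 0.71, and Mpeg1, a pore-forming protein of macrophages, one of 3.88 ± 0.82. Gpx1, a peroxide-removing enzyme, was at 18.7, 655 and 133 CPM against 13.7, 9.75 and 5.91 CPM.

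Of the 27 gene lists, that of the disease-associated microglial program, also the longest, held the most called genes. This program is the set of lipid-handling and phagocytic genes that microglia express around damaged tissue. Of 25 listed genes 23 were tested, 7 were called higher (Spp1, Gpnmb, Ctsb, Ctsd, Axl, Lgals3 and Igf1) and 0 lower, against 0.537% of all genes. All 23 had a positive log2 fold change, with a median of 3.42, and 11 separated the groups (7.05% of all genes lay higher without overlap). Gpnmb, a glycoprotein of phagocytes loaded with debris, was at 17.5, 616 and 38.6 CPM against 0, 3.99 and 0 CPM (7.04 ± 1.498, adjusted p = 0.0341). Axl, a receptor that recognizes dying cells, was at 132, 216 and 368 CPM against 35.2, 69.6 and 43.3 CPM (2.26 ± 0.52, adjusted p = 0.0471). Axl was thus highest in replicate 3, and its change without replicate 2 was 2.29.

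Other members of this program did not pass the threshold. Tyrobp, the signalling partner of Trem2, was at 16.2, 228 and 9.98 CPM and had no count in healthy EVs (adjusted p = 0.0690). Cd68, a lysosomal protein of macrophages, was at 10.7, 237 and 182 CPM against 0, 5.54 and 8.16 CPM (adjusted p = 0.0721). Neither gene overlapped between the groups. Trem2 itself, at 6.39, 43.8 and 26.6 CPM against 18.7, 0 and 0 CPM, overlapped. None of the 23 was called without day 10 replicate 2, where the median was 2.29.

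Genes of resting microglia had the same sign. Of 10 tested, 1 was called higher, all 10 were positive and the median log2 fold change was 2.38. With day 10 replicate 2 left out there was no call and the median was 1.34. The called gene was Csf1r, the receptor on which microglial survival depends, at 56.2, 345 and 166 CPM against 25.9, 17.9 and 36.3 CPM (2.82 ± 0.56, adjusted p = 0.0242). P2ry12, a purine receptor lost by activated microglia, was at 6.39, 50.8 and 3.99 CPM against 2.87, 7.31 and 2.25 CPM, and Tmem119 at 14.9, 59.7 and 40.6 CPM against 21.6, 6.42 and 2.25 CPM. Both overlapped between the groups.

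Among complement genes, the chains of C1q and C3 were called higher at day 10. The classical pathway starts when C1q, made in the brain by microglia, binds to debris or synapses and leads to deposition of C3. Of 19 tested genes of complement and Fc receptors 5 were called higher, C1qa, C1qb, C1qc, C3 and Itgb2, and 0 lower, with 18 positive and a median of 3.99 (3.22 with the genes that had no healthy count set at their lower bounds). Of all tested genes 0.537% were called higher. C1qc was at 46.4, 268 and 121 CPM against 0, 6.64 and 4.22 CPM (5.14 ± 0.94, adjusted p = 0.0157). C1qa was at 48.6, 282 and 195 CPM against 26.6, 12.6 and 18.0 CPM, a smaller change of 3.22 ± 0.73. C3 was at 37.1, 175 and 253 CPM against 0, 5.54 and 2.53 CPM (5.66 ± 1.28, adjusted p = 0.0460).

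Thus all 3 chains of C1q and their downstream component C3 lay above the healthy range in every stroke library. Itgb2, the common chain of leukocyte integrins, had no count in day 10 replicate 3 nor in healthy EVs, so its groups overlapped. Its partner chain Itgam was at 13.2, 80.2 and 43.9 CPM against 0, 0 and 5.63 CPM (adjusted p = 0.245). None of the 19 was called without day 10 replicate 2, where the median was 2.93.

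Signalling genes of the myeloid lineage had 4 of 19 tested members called higher and 0 lower, and all 19 were positive with a median of 4.15 (4.03 with lower bounds). In 14 of them the groups did not overlap. Of all tested genes 0.537% were called higher and 7.05% lay higher without overlap. Ptprc encodes the common leukocyte antigen CD45 and was at 26.8, 73.2 and 42.6 CPM against 0, 2.44 and 5.63 CPM (4.03 ± 0.80, adjusted p = 0.0249). Ptpn6, a phosphatase that restrains immune receptors, had a change of 4.11 ± 0.87, and Inpp5d, a lipid phosphatase that restrains phagocytosis in microglia, one of 2.66 ± 0.51. Irf8, a transcription factor required for microglial identity, was at 36.2, 334 and 219 CPM against 0, 14.2 and 17.2 CPM (4.15 ± 0.89, adjusted p = 0.0359). Spi1, which encodes PU.1, the lineage-determining factor of macrophages, was at 10.7, 186 and 55.9 CPM against 0, 1.77 and 2.81 CPM (adjusted p = 0.0517). It missed the threshold although its groups did not overlap. Without day 10 replicate 2 none of the 19 was called and the median was 3.27.

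The letters of a PU.1 core motif were searched in RefSeq promoters of the rat build GRCr8, which is not the build used for the counts, so genes were matched by symbol. Each promoter ran from 250 bases before to 50 bases after the start of the gene, and 56 of the 78 higher genes had one. GAGGAAGT, on either strand, was found in 6 of the 56 (10.7%), compared with 2.48% of 10321 tested genes and 2.44% of all 27457 promoters. The windows below hold the core in capitals with 10 bases on each side, turned so that the core reads the same way in each.
Arpc1b, a subunit of the actin-branching Arp complex, chr12:14609487-14609514, minus strand: ccccgcccacGAGGAAGTggctgcggcg
Ccdc88b, a regulator of immune cell migration, chr1:213482061-213482088, plus strand: ctgagaggaaGAGGAAGTccctggctgg
Ctss, cathepsin S, chr2:185775369-185775396, minus strand: tatccacaacGAGGAAGTgaactttcat
Cyth4, an exchange factor of ARF proteins, chr7:112032703-112032730, minus strand: gaccctgtggGAGGAAGTcagcccaggc
Inpp5d, chr9:95735520-95735547, plus strand: tttctataatGAGGAAGTtctctgcagc
Parvg, a focal adhesion protein of leukocytes, chr7:117336180-117336207, plus strand: cagcgtggcaGAGGAAGTgaacagaagc

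The core began 3 bases before the start of Inpp5d, 16 before Arpc1b, 17 before Ctss and 69 before Cyth4, and it began at base 4 of Parvg and base 22 of Ccdc88b. The whole Inpp5d promoter is printed because its gene had the smallest p of the 6, with the core in capitals.
Inpp5d, chr9:95735283-95735582, plus strand: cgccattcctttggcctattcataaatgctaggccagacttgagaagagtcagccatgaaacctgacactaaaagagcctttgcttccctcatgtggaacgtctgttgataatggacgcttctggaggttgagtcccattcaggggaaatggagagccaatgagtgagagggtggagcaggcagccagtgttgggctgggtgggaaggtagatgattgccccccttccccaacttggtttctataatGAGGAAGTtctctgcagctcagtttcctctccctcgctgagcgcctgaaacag
In EVs Inpp5d was at 55.8, 159 and 145 CPM at day 10 and at 12.9, 30.1 and 12.9 CPM in healthy rats. Arpc1b was at 70.3, 459 and 117 CPM against 0, 9.97 and 30.4 CPM. Both genes thus separated the groups, as did Ctss, Cyth4 and Ccdc88b. Parvg had no count in day 10 replicate 1. On either strand, the palindrome TCACGTGA, bound by factors of lysosomal genes, was found in 1 of the 56 promoters, that of Ctsd (1.79%, against 1.61% of tested genes), and the AP-1 letters TGAGTCA in 3 (5.36%, against 3.27%). A match of letters does not show that a factor was bound.

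A few lysosomal and iron-storage genes were called higher, each with its highest level in day 10 replicate 2, and no member of either list was called without that library. Cathepsins are the proteases that digest what phagocytes take up, and ferritin stores iron released from digested cells. Ctsd was at 90.8, 1079 and 330 CPM against 43.8, 69.1 and 26.4 CPM (3.42 ± 0.69, adjusted p = 0.0254), and Ctsb had a change of 2.55 ± 0.56. In the lysosome list 2 of 14 tested genes were called higher, Ctss and Npc2, with 12 positive and a median of 1.65 (0.64 without day 10 replicate 2). Ctss, the cathepsin most characteristic of microglia, was at 36.2, 319 and 149 CPM against 0, 23.9 and 13.2 CPM (3.69 ± 0.82).

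Both ferritin chains were called among 8 iron genes tested, with a list median of 2.84 that was 0.29 without day 10 replicate 2. Ftl1, the light chain, was at 96.7, 3312 and 207 CPM against 66.1, 47.0 and 29.8 CPM (4.68 ± 0.94, adjusted p = 0.0254). Fth1, the heavy chain, was at 844, 6363 and 1108 CPM against 597, 517 and 596 CPM (2.28 ± 0.52, adjusted p = 0.0460). The other stroke libraries lay above the healthy range by far less than replicate 2. Without day 10 replicate 2 the log2 fold change fell to 1.65 for Ftl1 and 0.74 for Fth1, and neither was called. Tmsb4x, an actin-binding peptide, and the ribosomal protein genes Rplp0, Rpl4 and Rpl29 were called with the same library far above the rest. For Tmsb4x the levels were 115, 4390 and 569 CPM against 99.2, 112 and 106 CPM (4.00 ± 0.86).

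Lipid genes gave values of both signs, and edgeR called no member of either list. Of all tested genes 12.7% had an unadjusted p under 0.05. Of 14 genes of lipid efflux and storage 11 were positive (median 1.75, and -0.10 without day 10 replicate 2), 6 had an unadjusted p under 0.05 (5 of them higher) and DESeq2 called 4. Abca1, which exports cholesterol to apolipoproteins, was at 245, 816 and 751 CPM against 221, 87.9 and 118 CPM (2.09 ± 0.50, adjusted p = 0.0533). Apoe was at 1875, 8071 and 4158 CPM against 1729, 2266 and 1591 CPM, with overlap. Of 15 genes of sterol synthesis 14 were negative (median -0.65, and -0.34 without day 10 replicate 2), 1 had an unadjusted p under 0.05 and DESeq2 called 0. Insig1, an inhibitor of this pathway, was at 8.95, 0 and 1.33 CPM against 22.3, 25.9 and 24.5 CPM (adjusted p = 0.452).

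Interferon-response genes had the highest median of the 27 lists, 4.26, without a single call by edgeR. All 15 tested were positive, 11 had an unadjusted p under 0.05 and DESeq2 called 7. Of all 14515 genes tested, 12.7% had an unadjusted p under 0.05 and DESeq2 called 613. Irf7, the factor that amplifies type I interferon, was at 23.4, 179 and 270 CPM against 0, 0 and 3.66 CPM (6.85 ± 1.71, adjusted p = 0.0710). Mx2, an antiviral GTPase, was at 57.5, 384 and 264 CPM against 0, 16.4 and 34.0 CPM (3.75 ± 1.01, adjusted p = 0.0991). They were 2 of 5 members whose groups did not overlap (7.05% of all genes lay higher without overlap). Without day 10 replicate 2 the median was 3.88, with 14 positive, and with lower bounds it was 4.17. Antigen presentation genes (8 tested) had 0 calls, 2 with an unadjusted p under 0.05, 2 called by DESeq2, and a median of 2.63 (1.88 with lower bounds, and 0.91 without day 10 replicate 2).

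**Figure D3:**
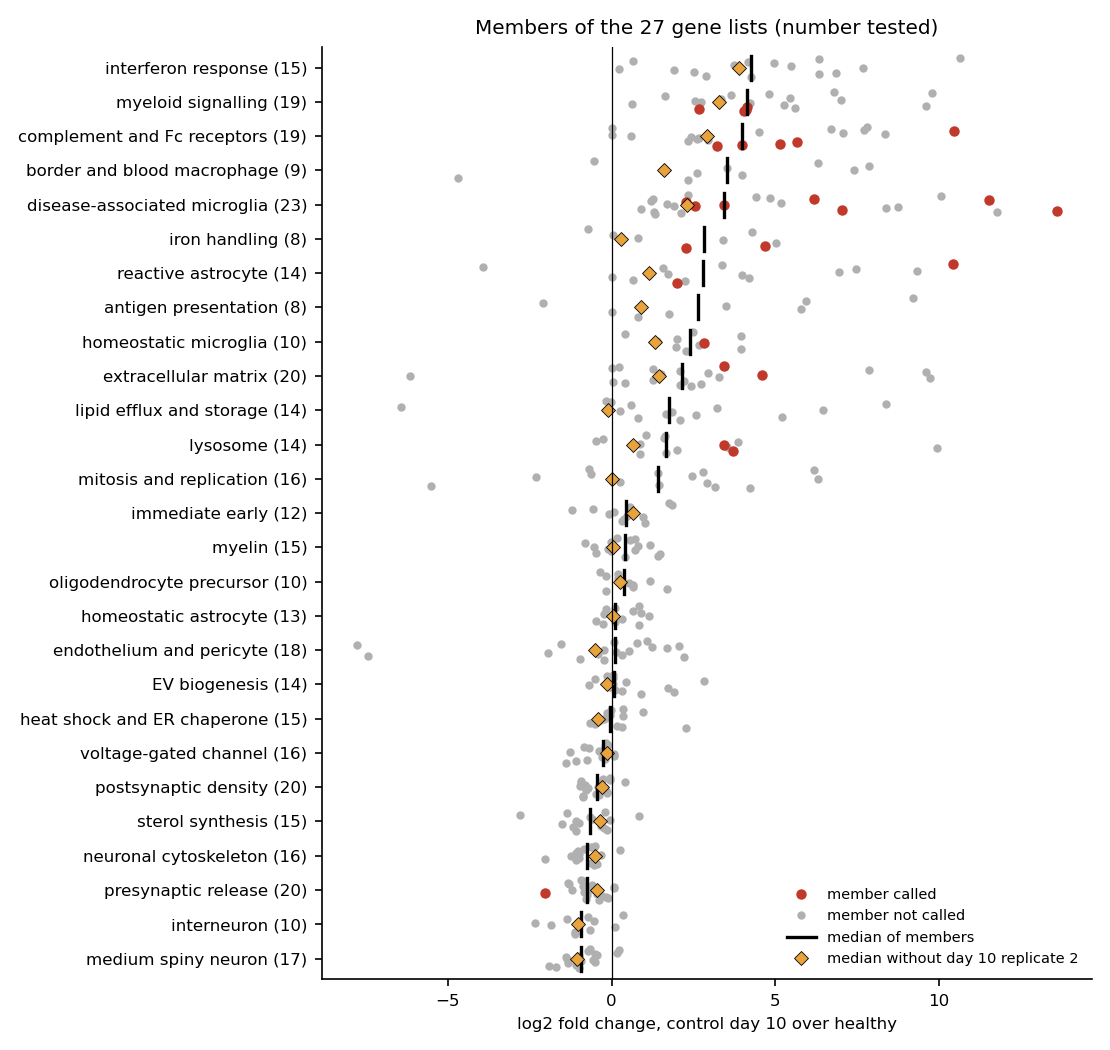
Each row is a gene list with the number of members tested, each point is the log2 fold change of 1 member, day 10 over healthy, and red points are called genes. Black bars are medians over members and yellow diamonds the same medians without day 10 replicate 2; phagocyte and interferon lists lie right of 0 and neuronal lists left of it, and iron handling drops from 2.84 to 0.29 without that library.

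Reactive astrocyte genes included 2 that were called higher. Gfap, the intermediate filament of reactive astrocytes, was at 1563, 3014 and 2464 CPM against 695, 504 and 571 CPM, a log2 fold change of 1.99 ± 0.35 (adjusted p = 0.0129). Each stroke library held more than any healthy one, and the change was 1.73 without day 10 replicate 2, where the call was lost (adjusted p = 0.101). In the reactive astrocyte list 2 of 14 tested genes were called, Gfap and S100a11, with 12 positive and a median of 2.80 (2.73 with lower bounds, and 1.15 without day 10 replicate 2). Vim, a second filament of reactive astrocytes, was at 124, 1138 and 274 CPM against 152, 118 and 56.6 CPM and overlapped.

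Genes of resting astrocytes gave 0 calls of 13 by edgeR, 2 with an unadjusted p under 0.05 (12.7% of all genes) and 1 call by DESeq2, around a median of 0.11. Among them Glul, the enzyme that turns glutamate into glutamine, was at 908, 1519 and 734 CPM against 444, 694 and 299 CPM (1.14 ± 0.30, adjusted p = 0.0946). S100b, a calcium-binding protein of astrocytes, was at 564, 667 and 520 CPM against 310, 379 and 260 CPM (0.88 ± 0.31, adjusted p = 0.245). Neither overlapped.

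Of 20 matrix genes tested 18 had a positive change, with 2 called higher and a median of 2.15 (1.44 without day 10 replicate 2). Bgn, a small proteoglycan, was at 17.9, 120 and 107 CPM against 0, 12.0 and 9.28 CPM (3.43 ± 0.78, adjusted p = 0.0471), and Tgfb1, the cytokine that drives scarring, was at 8.10, 103 and 16.6 CPM against 0, 2.21 and 2.53 CPM (4.61 ± 1.08, adjusted p = 0.0487). The fibrillar collagen genes were not called. Col3a1 was at 117, 1178 and 696 CPM against 83.3, 73.8 and 142 CPM (adjusted p = 0.0760) and Col1a1 at 100.1, 1017 and 480 CPM against 145, 78.4 and 72.9 CPM (adjusted p = 0.0899). In both, replicate 1 lay within the healthy range.

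The 5 genes called lower were Bex2, Trim44, Syp, Stmn3 and Ccdc85b, of which Bex2, Syp and Stmn3 are enriched in neurons. In each the highest stroke library was replicate 1 and the groups did not overlap. Syp encodes synaptophysin, an abundant membrane protein of synaptic vesicles. It was at 312, 105 and 132 CPM against 786, 878 and 562 CPM, a log2 fold change of -2.02 ± 0.47 (adjusted p = 0.0477). Bex2, a small protein enriched in neurons, was at 134, 63.9 and 69.2 CPM against 341, 425 and 365 CPM (-2.08 ± 0.36, adjusted p = 0.0129). Stmn3, a tubulin-binding protein of axons, was at 194, 125 and 110 CPM against 504, 637 and 457 CPM (-1.90 ± 0.38, adjusted p = 0.0249). Trim44, which acts on ubiquitinated proteins, fell by 2.04 ± 0.36 and Ccdc85b, a coiled-coil protein, fell by 1.88 ± 0.36 on the log2 scale.

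The neuronal lists were mostly negative, with few calls. Of 20 presynaptic genes 1 was called lower, Syp (0.0344% of all genes were), 18 were negative, 8 separated the groups (7.03% of all genes lay lower without overlap) and the median was -0.76. Cplx2, a regulator of vesicle fusion, was at 625, 285 and 309 CPM against 937, 1039.5 and 841 CPM (adjusted p = 0.107), and Slc17a7, the vesicular glutamate transporter, was at 468, 136 and 304 CPM against 913, 712 and 608 CPM (adjusted p = 0.158). Snap25, the SNARE protein of the plasma membrane, was at 841, 144 and 376 CPM against 390, 803 and 591 CPM and overlapped. The presynaptic genes thus did not all separate the groups, and 2 of the 20 were positive.

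Of 16 genes of the neuronal cytoskeleton 15 were negative and 8 separated the groups, with a median of -0.74 and 0 calls. At an unadjusted p under 0.05 there were 8, all lower, and DESeq2 called 1. Nefm, the medium neurofilament chain, was at 720, 164 and 259 CPM against 1566, 1628 and 1443 CPM (-2.02 ± 0.48, adjusted p = 0.0553). The microtubule-associated gene Map1b was at 4839, 1820 and 3220 CPM against 3515, 5132 and 4821 CPM. It was within or near the healthy range except in replicate 2. Postsynaptic genes gave 19 negative of 20 (median -0.45), genes of striatal medium spiny neurons 15 of 17 (median -0.94) and interneuron genes 8 of 10 (median -0.92), each with 0 calls. Their counts at an unadjusted p under 0.05 were 8, 2 and 1, all lower, and those called by DESeq2 were 1, 1 and 0. Of all tested genes 12.7% had an unadjusted p under 0.05, so the medium spiny and interneuron counts lay near that share. Without day 10 replicate 2 the medians of the presynaptic, cytoskeletal and medium spiny lists were -0.45, -0.50 and -1.05, and that of the postsynaptic list was -0.28 with 5 of 20 positive.

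Summed cell type markers were compared by library. They re-count called genes, 4 of the 7 microglial markers and 1 of the 6 astrocyte markers, Gfap. Gfap had a mean of 2347 CPM at day 10 and 590 CPM in healthy EVs, within mean astrocyte sums of 3023 and 1190 CPM. Among the other astrocyte markers, Aqp4, Slc1a3 and Gja1 had higher means at day 10 and Slc1a2 and Aldh1l1 had lower ones. The 7 microglial markers summed to 193, 1239 and 655 CPM at day 10 and to 61.6 to 86.2 CPM in healthy EVs, and the 6 astrocyte markers to 2427, 3749 and 2893 CPM against 1156 to 1246 CPM (exact permutation p = 0.1 for each, the smallest value that 3 against 3 libraries allow). The 6 neuron markers summed to 5030, 1456 and 3048 CPM against 4526 to 5772 CPM (exact permutation p = 0.2). Oligodendrocyte markers stood at 2861, 12499.5 and 4140 CPM against 2618 to 3058 CPM (exact permutation p = 0.2), where Mbp, the myelin basic protein, gave 10113.5 CPM of replicate 2. Day 10 replicate 2 was thus highest for microglia, astrocytes and oligodendrocytes and lowest for neurons, and it was also the library with the high ribosomal protein signal. What this library's composition contributes to the calls was not tested beyond leaving it out.

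**Figure D4:**
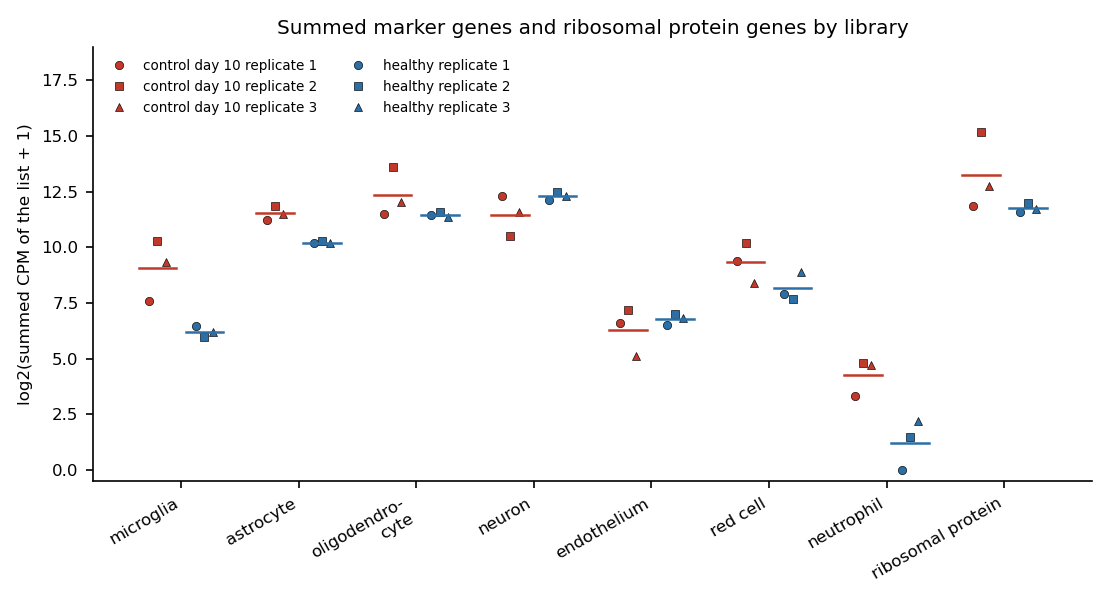
The y axis gives the log2 of the summed CPM of each marker list plus 1, per library, with symbols for replicates, red for control day 10, blue for healthy and bars for means of the plotted values. Microglia and astrocyte sums do not overlap between the groups, and day 10 replicate 2 is far above the other libraries for oligodendrocyte and ribosomal protein genes and lowest for neuron markers.

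Markers of other cells were low or did not separate the groups. All 5 T cell markers were at 0 in the 6 libraries, and 4 of 5 neutrophil markers were at 0. The fifth, Csf3r, was at 8.95, 26.6 and 25.3 CPM against 0, 1.77 and 3.66 CPM (exact permutation p = 0.1). Red cell markers summed to 675, 1165 and 339 CPM against 203 to 475 CPM (exact permutation p = 0.2), endothelial markers to 33.9 to 144 CPM against 90.5 to 130 CPM (exact permutation p = 0.7), and liver markers to 0 against 0 to 2.81 CPM. Border and blood macrophage genes had 0 calls of 9, 5 with an unadjusted p under 0.05 (12.7% of all genes), 2 called by DESeq2, and a median of 3.52 (2.61 with lower bounds). Without day 10 replicate 2 that median was 1.605, with 5 of 9 positive. Lyz2, lysozyme, was at 5.97, 352 and 74.5 CPM against 18.0, 4.87 and 15.8 CPM and overlapped.

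The other lists stayed near the median of all genes or were sparse. Myelin (15 tested), oligodendrocyte precursor (10), immediate early (12), endothelium and pericyte (18), EV biogenesis (14), heat shock (15) and voltage-gated channel genes (16) had medians between -0.26 and 0.44 and 0 calls, and between -0.51 and 0.66 without day 10 replicate 2. At an unadjusted p under 0.05 (12.7% of all genes) they held 4, 0, 0, 3, 2, 3 and 4 genes, and DESeq2 called 2, 0, 0, 0, 0, 1 and 1. Mitosis and replication genes (16 tested) had a median of 1.42, 0 calls, 3 with an unadjusted p under 0.05 and 2 called by DESeq2. Leaving out day 10 replicate 2 took this median to 0, with 6 of 16 positive. Mki67, a marker of dividing cells, was at 9.37, 147 and 83.1 CPM against 0, 9.52 and 1.97 CPM (adjusted p = 0.0798), with overlap.

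Per transcript length, in FPKM, the 5 most abundant annotated genes of the 6 libraries were LOC310926, Apoe, Ptms, Fth1 and Tmsb4x. LOC310926 had a mean of 116 FPKM and Apoe, the main lipid carrier of the brain, 78.8 FPKM. Ptms, a small acidic nuclear protein, had 58.0 FPKM and Fth1 57.9 FPKM. The log2 fold changes of LOC310926 (-0.07 ± 0.51) and Ptms (0.13 ± 0.26) were smaller than their errors, and both changed sign when single libraries were left out. Fth1 and Tmsb4x were called higher, as given above.

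The same test placed day 10 beside the other times. Library composition differed between the times. Annotated genes took 25.3, 23.2 and 22.0% of the counts at day 4 and 12.1, 13.4 and 11.3% at day 10. At day 31 they took 41.4, 43.0 and 30.3%. Genes detected numbered 10698 to 12856 at day 10 and 15074 to 16116 at day 31. What this difference contributes to the comparisons between times was not tested. Against the same healthy libraries, 125 genes were called at day 4 (0.861%) and 1 at day 31 (0.00689%), Gfap, where 1036 (7.14%) had an unadjusted p under 0.05. The 78 higher genes had a median log2 fold change against healthy of 3.05 at day 4, 3.68 at day 10 and 1.89 at day 31, and 54 of them were also called at day 4. The 78 genes were picked by their day 10 calls, which favours a higher median at day 10, so these medians do not show a peak. These comparisons share the healthy libraries, and the median of all genes was 0.05 at day 4 and 0.24 at day 31. Directly, edgeR called 0 genes between days 4 and 10, where 898 (6.19%) had an unadjusted p under 0.05 and DESeq2 called 70. Spp1 was at 719, 789 and 495 CPM at day 4 and at 18.2, 28.9 and 3.15 CPM at day 31. C1qc was at 113 to 319 CPM at day 4 and at 7.41 to 44.1 CPM at day 31. For both genes day 10 replicate 2 lay within the day 4 range, and replicate 1 lay within or just above that of day 31.

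List medians over time again share the healthy libraries, and their differences were not tested. The median log2 fold change of mitosis and replication genes was 3.59 at day 4, 1.42 at day 10 (0 without replicate 2) and 1.09 at day 31, and that of reactive astrocyte genes was 4.78, 2.80 (1.15 without day 10 replicate 2) and 3.66. Interferon-response genes had medians of 1.52, 4.26 and 3.07. Irf7 was at 0, 24.1 and 0 CPM at day 4, at 23.4, 179 and 270 CPM at day 10 and at 17.6, 29.8 and 12.0 CPM at day 31. Day 10 replicates 2 and 3 were thus the highest of these libraries. Of the 78 higher genes 4 had an unadjusted p under 0.05 between days 10 and 4, a share no larger than that of all tested genes (6.19%).

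Between days 10 and 31 edgeR called 22 genes (0.152%), 14 higher (0.0965%) and 8 lower (0.0551%) at day 31, and 1324 (9.12%) had an unadjusted p under 0.05. Lower at day 31 were collagen genes (Col16a1, Col27a1, Col5a1, Col5a3), the myelin genes Mbp and Bcas1, and the chromatin genes Samd1 and Hist1h1d. Col16a1 was at 1016, 1612 and 1929 CPM at day 10 and at 149, 385 and 199.8 CPM at day 31 (-2.63 ± 0.40, adjusted p = 0.0135). Higher at day 31 were the tubulin genes Tubb4a and Tubb2a, the calmodulin gene Calm3 and Bex2, among others. Bex2 was at 293, 287 and 478 CPM at day 31, a log2 change from day 10 of 1.98 ± 0.36 (adjusted p = 0.0212). Hist1h1d, a linker histone, went from 101, 454 and 223 CPM to 29.7, 49.2 and 24.3 CPM (-2.91 ± 0.56, adjusted p = 0.0330). Of the 83 genes called at day 10 these and Samd1 alone differed between the 2 times by this test. Gfap was at 2874 to 4120 CPM at day 31. The 22 calls became 5 without day 10 replicate 2, 1 without day 10 replicate 3, 61 without day 10 replicate 1, and 0 without day 31 replicate 1 or 3.

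**Figure D5:**
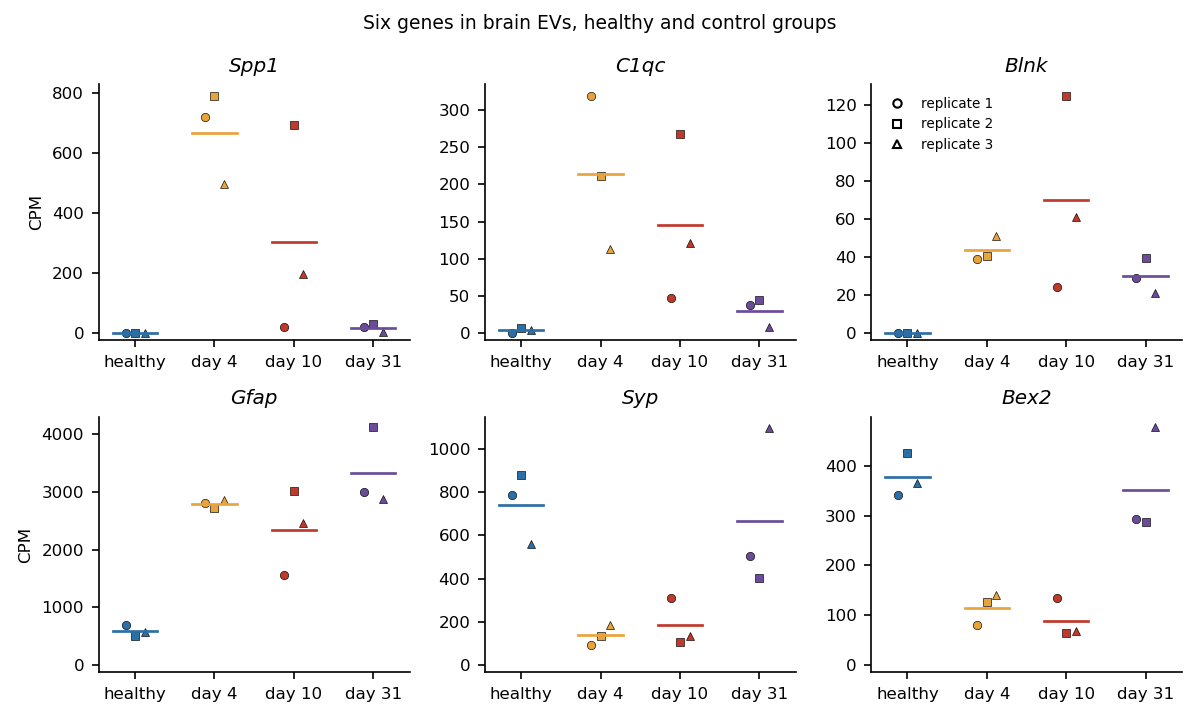
CPM of 6 genes in each library (y axis) is shown for healthy brain EVs and the control group at days 4, 10 and 31 (x axis), with symbols for replicates and bars for group means. Spp1 and C1qc are highest at day 4 and low at day 31, Gfap is high at every poststroke time, and Syp and Bex2 are low at days 4 and 10.

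In rats that received human neural stem cells in place of saline, the same 78 genes had a median log2 fold change of 2.30 against the same healthy libraries at day 10. The 78 genes were picked by their calls in the saline group, which favours a higher median there. The stem cell group also held shallow libraries at day 10, with 1123445 annotated counts in replicate 2 and 569136 in replicate 3. Gfap was at 1.91 in that comparison, C1qc at 4.51 and Syp at -1.53. Whether the 2 treatments differ was not tested here. In plasma EVs of the control group at day 10, edgeR called 0 of 14720 genes against healthy plasma, 825 (5.6%) had an unadjusted p under 0.05 and DESeq2 called 1242. All 78 higher genes were tested there, 36 were positive and none was called by edgeR. Gfap had a log2 fold change of 2.04 and C1qc of 0.94 ± 1.95 (SE) in plasma, against 1.99 and 5.14 in brain EVs. The C1qc change in plasma was smaller than its error, and neither gene was called there.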

How the data were processed

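The authors isolated EV RNA, made stranded total RNA libraries, sequenced paired ends and aligned reads with Bowtie2 to the rat genome Rnor 6.0; the counts per gene and the FPKM values (StringTie, summed over transcripts) were used as deposited. Tool versions, the strand setting and the handling of shared reads are not given in the sources used here, so related genes, overlapping genes and ferritin or ribosomal copies are uncertain. Reads carried no molecular identifiers. Rows of newly assembled genes, 5 of which took 59.3 to 85.5% of the counts, stayed out of the main test.

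Counts of the 21 brain libraries (7 groups, 3 rats each) were fitted in one model with edgeR 4.0.16 (R 4.3.3; filterByExpr, TMM, quasi-likelihood, Benjamini-Hochberg over all genes tested), with plasma libraries in a second model. The script was tested on simulated data. In these edgeR models p-values reflect the spread between the 3 rats within each group. That spread was estimated over all 7 groups of a model, not from the compared groups alone. The study used limma on expression values, which was run as an alternative (limma 3.58.1 on log2(FPKM + 1) with a mean of at least 1 FPKM), as was DESeq2 1.42.0. Marker sums were compared by a two-sided exact permutation test. Lower bounds of fold used 3 counts over the healthy group, 0.317 CPM. Counting error alone is covered by such floors. Named genes were list members, up to 12 called genes per direction with the largest change, no overlap and at least 50 counts in every library of the higher group, the 5 smallest p and the 5 highest FPKM; other called genes were named after their values were seen. Some genes of these sets are not reported here. The gene lists, motifs and tests were chosen with earlier results of these data known. Replicate numbers did not pair rats across groups (r of -0.05, 0.09 and -0.02 between deviations of same-numbered libraries).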

Additional observations from a re-analysis of the deposited data

Results flagged for a closer look

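The difference between days 10 and 31 was itself tested within the control group, and 22 genes passed. Of the genes called at day 10 against healthy, 3 were among them. Samd1, a chromatin reader, fell by 1.68 ± 0.29 on the log2 scale from day 10 to day 31 and Hist1h1d fell by 2.91 ± 0.56, whereas Bex2 rose by 1.98 ± 0.36. Outside the annotated genes, 2 of 2269 newly assembled genes tested were called, both higher at day 10 than in healthy EVs, and 283 had an unadjusted p under 0.05. They have no symbol and were not analysed further.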

How the results depend on the processing

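Counts of called genes depended strongly on the processing, while the direction of each of the 83 genes was the same wherever it was tested. Calling these genes from the same libraries largely fixes that direction. Of the 83 calls (78 higher, 5 lower), RLE factors gave 92, no filter 105 and a minimum of 20 counts 69. DESeq2 gave 613 (517 higher, 96 lower), annotated and new genes together 44 (40 higher), and leaving out ribosomal protein genes, chosen after seeing the data, 51 (47 higher). Fitting only these 2 groups gave 0 (0 and 0), and so did limma on log2(FPKM + 1) and on log2(FPKM + 0.1), where 60 of the 83 genes were tested. The replicate block within the 2 groups gave 2 (2 higher, 0 lower). Leaving out single libraries gave 0 to 350 (0 to 258 higher, 0 to 92 lower), with the lowest count without healthy replicate 1 and the highest without day 10 replicate 1. The cause was not tested. Between days 4 and 10 the count of 0 became 70 with DESeq2, 4 with limma on log2(FPKM + 1) and 0 to 1 when single libraries were left out.

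Between days 10 and 31 the count of 22 became 173 with DESeq2, 36 without a filter, 42 with new genes, 3877 and 3510 with limma on log2(FPKM + 1) and log2(FPKM + 0.1), 0 with only the 2 groups, 0 with the replicate block, and 0 to 61 when single libraries were left out. What the larger annotated share and depth of the day 31 libraries contribute to these counts was not tested. In plasma the count of 0 became 1242 with DESeq2 and 0 to 2 when single libraries were left out. The sign turned for LOC310926 without day 10 replicate 2 (0.28) and without healthy replicate 1 (0.046), with a range of -0.70 to 0.28 over the libraries left out, and for Ptms without day 10 replicate 1 (-0.051) and without healthy replicate 3 (-0.033), with a range of -0.051 to 0.24. Healthy replicate 1, with 1403190 annotated counts, limits what can be said of genes at 0 in that library.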
